A study of Mus musculus with 8 samples.

Results

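The genes described here are 40 genes of the amino acid stress response: the transcription factor ATF4, its partners and targets, and 10 cytosolic aminoacyl-tRNA synthetases. Members were taken by gene name from a table of 50600 names, and all 40 were found in it. They were chosen with earlier results of these data known. They fall into 7 role groups, namely 4 regulators, 5 genes of the CHOP branch, 6 serine and one-carbon enzymes, 4 other amino acid enzymes, 8 transporters, 10 synthetases and 3 other targets. RNA-seq had been made from c-Jun_TetOn mESCs, which are OG2 transgenic mouse embryonic stem cells of a mixed 129SVJ, C57B6 and CBA strain in which doxycycline switches on JUN and thereby starts the exit from pluripotency. All 4 groups received 2 µg/ml doxycycline, the controls included, and differed only in what was added for 6 h: the solvent DMSO, PFI-3 alone, BI-9564 alone, or the 2 together (P+B). PFI-3 binds the bromodomain of BRG1, the ATPase of the BAF chromatin remodeling complex, and BI-9564 binds those of BRD9 and BRD7. Each group had 2 libraries, 8 in all, and no group without doxycycline was analysed here, so the values describe the compounds on top of JUN induction. Cells were at passage 12, grown without feeders in 2i and LIF medium, and the labels do not say whether replicates came from separate cultures, so every p-value below measures only the spread between these libraries. The labels give no dose of either compound, alone or in P+B.

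ATF4 is the main effector of the integrated stress response. Kinases that sense missing amino acids, unfolded protein, haem shortage or viral RNA phosphorylate the translation factor eIF2, which lowers protein synthesis in general while the *Atf4* message is translated better. ATF4 protein, often paired with a C/EBP protein, then raises genes for amino acid uptake, for serine, asparagine, proline and cysteine synthesis and for the charging of tRNAs, and under prolonged stress the factor CHOP and its own targets. Much of the control of ATF4 is exerted on its translation, so the level of *Atf4* mRNA is not a measure of ATF4 protein.

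ATF4 paired with a C/EBP protein binds a composite element, which was searched for as TGATGNAA on either strand in the RefSeq promoters of GRCm38.p6, from 250 bases before to 50 after each start site. A promoter entry was matched for 32 of the 40 members, and 13 of these held the letters. Over all genes they were held by 4.51% of the 27025 gene symbols with a promoter (3.97% of all 32851 promoters, since some genes have several). The members were picked as ATF4, its partners and targets, and synthetases, so these shares are descriptive only. The windows below, of 8 genes, are shown because both BI-9564 libraries of each gene lay below both of its PFI-3 libraries. They were thus chosen with the expression values known. Each is written 5′ to 3′ on the strand of its gene, with the match in capitals.

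Trib3, chr2:152344029-152344056, minus strand: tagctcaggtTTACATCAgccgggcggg
Chac1, chr2:119351039-119351066, plus strand: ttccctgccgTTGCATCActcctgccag
Nupr1, chr7:126625563-126625590, minus strand: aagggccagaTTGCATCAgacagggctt
Slc1a4, chr11:20332700-20332727, minus strand: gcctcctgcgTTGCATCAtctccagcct
Asns, chr6:7693215-7693242, minus strand: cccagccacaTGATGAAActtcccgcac
Yars, chr4:129189896-129189923, plus strand: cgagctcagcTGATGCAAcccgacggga
Tars, chr15:11399656-11399683, minus strand: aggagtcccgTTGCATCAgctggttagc
Iars, chr13:49682127-49682154, plus strand: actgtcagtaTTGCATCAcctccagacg

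Read on the strand where the letters begin with TGATG, 6 of these 8 windows held TGATGCAA. Their centres lay from 189 bases before to 18 bases after the start site, and that of *Slc1a4* lay on it. Among members tested for expression, both BI-9564 libraries lay below both PFI-3 libraries in 9 of 11 with a match, in 8 of 18 with a promoter but no match and in 4 of 7 with no promoter entry, beside 19.9% of all tested genes. The 8 without a match in these windows were *Aldh18a1*, *Atf4*, *Ddit3*, *Mars*, *Mthfd2*, *Psat1*, *Psph* and *Slc7a1*. The tested members with a match whose BI-9564 and PFI-3 libraries overlapped were *Pycr1* and *Gars*, and that of *Pycr1* was TGATGCAA as well. *Slc7a11* and *Vldlr*, too low to be tested for expression, also held TGATGCAA. A match is a run of letters and was not tested for binding. As the windows shown were chosen by expression, a link between their letters and expression was not tested.

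The deposited values are TPM (transcript abundance scaled to a fixed sum per library) that had been made whole numbers. TPM is corrected for transcript length, so levels can be set beside each other between genes. TPM keeps no read number, so the depth of the libraries and the counting error are unknown, and low values move in steps of 1. Library sums ran from 991574 to 991897, 10285 to 10451 names per library had at least 5 TPM, and the Pearson correlation of replicates over genes was 0.964 to 0.971. The libraries carried the markers of embryonic stem cells, with 10 of 10 at a mean of at least 5 TPM. Their summed level differed between groups and replicates: it was 4970 and 3771 TPM under DMSO, 5248 and 4240 under PFI-3, 4392 and 3335 under BI-9564, and 4488 and 3523 under P+B. Within each replicate number this sum, most of it *Dppa5a* and *Pou5f1*, had the order of *Atf4* described below, PFI-3 highest and BI-9564 lowest. Of the 10 single markers, only *Pou5f1* and *Fgf4* kept the full order of *Atf4* in both replicates. In *Esrrb*, *Nanog*, *Klf4* and *Tfcp2l1* P+B lay above DMSO in at least 1 replicate. In replicate 1 *Esrrb* was highest with P+B (141 TPM, beside 128 with PFI-3). *Dppa5a* was lowest there with P+B (2588 TPM, beside 2607 with BI-9564), as were *Sox2*, *Zfp42* and *Tdgf1*. Of 10 fibroblast markers 0 reached that level and 6 were at 0 throughout, and of 8 markers of extraembryonic endoderm 0 reached it and 4 were at 0. The summed level of the trophoblast markers was 107 to 120 TPM with DMSO and 69 to 87 with PFI-3. It was 61 to 74 with BI-9564 and 47 to 50 with P+B. *Krt18* carried this fall, with 103 and 89, 66 and 51, 58 and 38, and 27 and 20 TPM in the same order. The other trophoblast markers did not fall as a set. *Cdx2* went from 1 and 0 TPM with DMSO to 5 and 10 with P+B, *Hand1* from 4 and 6 to 1 and 1, and *Krt7* was at 0. The part of either marker list in the results below was not tested. *Jun* also moved with the groups, from 1970 and 2877 TPM with DMSO and 2071 and 3011 with BI-9564 to 1570 and 2227 with PFI-3 and 1569 and 2159 with P+B. In bulk RNA, fewer cells of a type and less RNA per cell cannot be told apart.

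Of the 40 members, 36 had a mean of at least 5 TPM over the 8 libraries and were tested among 10222 genes. The 4 others were near or at 0: *Slc7a11*, the cystine transporter, was at 0 in all 8 libraries, *Aldh1l2*, a mitochondrial folate enzyme, and *Stc2*, a secreted glycoprotein, reached at most 3 TPM, and *Vldlr*, a lipoprotein receptor, at most 2. Differences are given as log2 differences of TPM + 1, a scale on which low genes appear to change less than they did, with the standard error (SE) of limma's fit. A gene was counted as changed at an adjusted p under 0.05 (Benjamini-Hochberg over all 10222 genes) and a fold of at least 1.5. The smallest p of an exact permutation test (two-sided) is 0.333 for 2 libraries against 2, so calls rest on a spread pooled over the groups and moderated across genes.

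In a test of any difference among the 4 groups, 5 of the 36 tested members passed, against 1.94% of all tested genes: *Atf4* (adjusted p = 0.0143), *Trib3* (0.0104), *Chac1* (0.036), *Nupr1* (0.0365) and *Slc7a3* (0.0217). These are the master regulator, 3 genes of the CHOP branch and a transporter of arginine and lysine. With the replicate number as a block 12 members passed, against 7.50% of all tested genes, the additions being *Ddit4*, *Asns*, *Cth*, *Slc1a5*, *Aars*, *Iars* and *Eif4ebp1*. Without the block and with any 1 of the 8 libraries left out, at most 2 passed. The heat map of the tested members shows the PFI-3 libraries mostly above DMSO and the BI-9564 libraries mostly below it in the CHOP branch, the synthetases and *Atf4*.

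**Figure D1:**
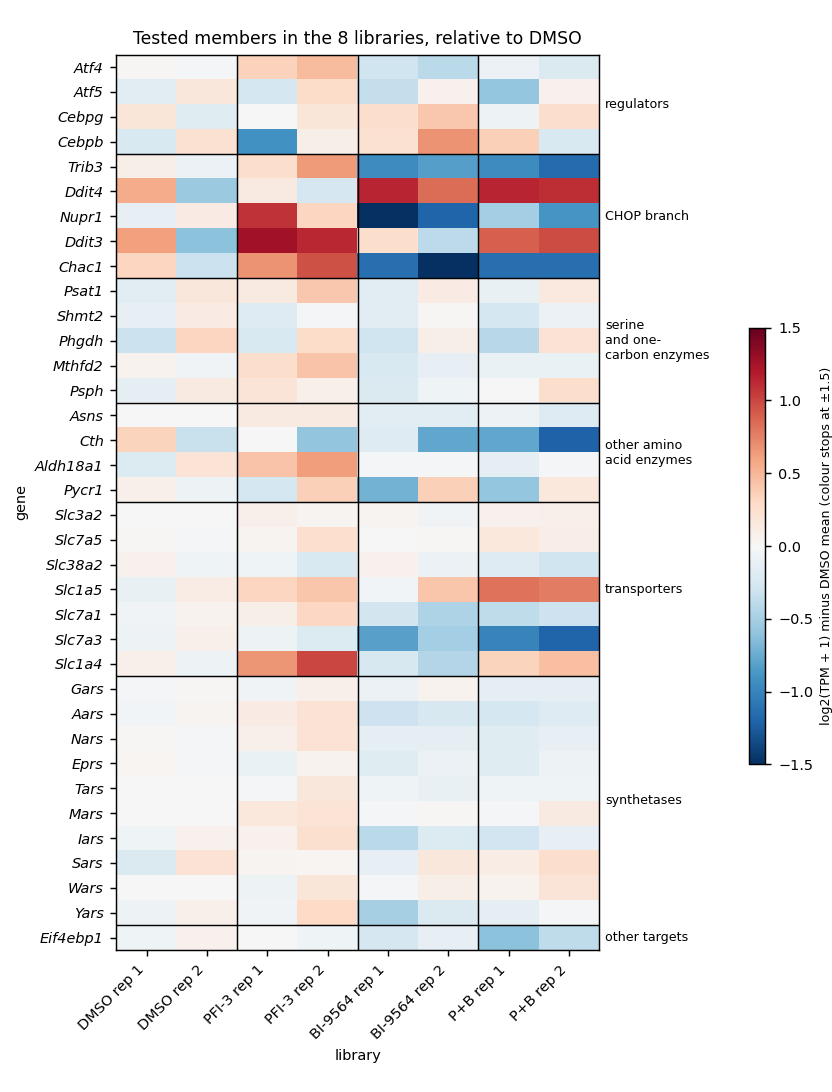
Heat map of the 36 tested members (rows, by role) in the 8 libraries (columns); colour is log2(TPM + 1) minus the mean of the 2 DMSO libraries, red above and blue below, with the colour stopping at ±1.5. *Trib3*, *Chac1*, *Nupr1* and *Atf4* are red with PFI-3 and blue with BI-9564, and *Slc7a3* is blue with BI-9564 and P+B.

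The regulators were led by *Atf4*, which was among the abundant members and separated all 4 groups. *Atf4* (15:80255184-80257541, plus strand, GRCm38) had 305 and 297 TPM under DMSO, 383 and 419 under PFI-3, 244 and 227 under BI-9564, and 283 and 258 under P+B. No pair of groups overlapped, and the order from high to low was PFI-3, DMSO, P+B, BI-9564. *Atf4* was lower with BI-9564 than with PFI-3 by a log2 difference of −0.76 (SE 0.09, 95% interval −0.96 to −0.57, adjusted p = 0.0207). Between P+B and PFI-3 its log2 difference of −0.57 had an adjusted p of 0.024 but stayed under the fold of 1.5. Against DMSO it was 0.41 with PFI-3 (adjusted p = 0.493), −0.35 with BI-9564 (0.144) and −0.16 with P+B (0.326), and none of the 3 passed.

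The partners of ATF4 were low and noisy beside it. *Atf5*, a related factor that is itself under translational control, had 32 and 41 TPM under DMSO, 30 and 44 under PFI-3, 28 and 38 under BI-9564, and 24 and 38 under P+B, so its groups overlapped throughout. *Cebpb* had 7 and 10, 4 and 9, 10 and 14, and 11 and 7 TPM in the same order. *Cebpg*, which dimerises with ATF4, had 17 and 13, 15 and 17, 18 and 20, and 14 and 18 TPM. For *Cebpb* and *Cebpg* both BI-9564 libraries lay above both PFI-3 libraries, with log2 differences of 0.86 (SE 0.39) and 0.24 (SE 0.20) that did not pass (adjusted p = 0.373 and 0.652).

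The CHOP branch held the widest differences of any role group, and its 5 genes did not move together. *Trib3* (2:152337422-152344032, minus strand), a pseudokinase induced by CHOP and ATF4 that restrains ATF4, had 44 and 39 TPM under DMSO, 50 and 65 under PFI-3, 21 and 23 under BI-9564, and 21 and 18 under P+B. The libraries with BI-9564, alone or in P+B, all lay below the 4 without it. *Trib3* fell with P+B by a log2 difference of −1.05 against DMSO (SE 0.17, adjusted p = 0.0124) and of −1.505 against PFI-3 (SE 0.17, adjusted p = 0.0109), and was lower with BI-9564 than with PFI-3 by −1.34 (SE 0.17, adjusted p = 0.0385). With BI-9564 against DMSO the log2 difference was −0.88 (SE 0.17), with an adjusted p of 0.0893, and of 0.0407 with the replicate block. With PFI-3 against DMSO it was 0.45 (SE 0.17, adjusted p = 0.658).

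*Chac1* (2:119351229-119354381, plus strand), which encodes a glutathione-degrading cyclotransferase, followed a like course at lower levels, with 10 and 6 TPM under DMSO, 13 and 16 under PFI-3, 3 and 2 under BI-9564, and 3 and 3 under P+B. It fell with P+B against PFI-3 by a log2 difference of −1.95 (SE 0.34, adjusted p = 0.0348). BI-9564 against PFI-3 gave −2.15 (SE 0.34), with an adjusted p of 0.0667, and of 0.0267 with the replicate block. At 2 or 3 TPM a step of 1 is a large part of the value, so these sizes are coarse. Against DMSO the log2 differences of *Chac1* were 0.81 under PFI-3 (adjusted p = 0.71), −1.34 under BI-9564 (0.157) and −1.13 under P+B (0.0956).

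*Nupr1* (7:126623249-126630861, minus strand), a small stress-induced chromatin protein, had 16 and 19 TPM under DMSO, 38 and 22 under PFI-3, 4 and 7 under BI-9564, and 12 and 9 under P+B. Its groups were separate in every pairing. Against PFI-3 the BI-9564 libraries were lower by a log2 difference of −2.24 (SE 0.32, adjusted p = 0.0667, and 0.0267 with the replicate block), the widest of any tested member in any comparison. P+B lay between the single compounds, with log2 differences of −1.39 from PFI-3 (adjusted p = 0.0847) and 0.85 from BI-9564 (adjusted p = 0.547).

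The other 2 genes of the branch went their own ways. *Ddit3*, which encodes CHOP itself, had 13 and 5 TPM under DMSO, 21 and 19 under PFI-3, 10 and 6 under BI-9564, and 16 and 17 under P+B. Both groups with PFI-3 thus lay above both groups without it, but the DMSO libraries were far apart. The log2 differences of *Ddit3* from DMSO were 1.19 with PFI-3 (SE 0.39, adjusted p = 0.594), −0.06 with BI-9564 (0.956) and 0.93 with P+B (0.201), and BI-9564 against PFI-3 gave −1.26 (0.228). In the annotation the end of *Ddit3* overlaps that of *Mars* on the other strand, and the strand setting of the counting is not given in the sources used here, so reads there may be shared.

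*Ddit4*, an inhibitor of mTORC1 that many stresses raise, had 27 and 12 TPM under DMSO, 20 and 15 under PFI-3, 41 and 33 under BI-9564, and 41 and 40 under P+B. Both groups with BI-9564 lay above both groups without it, the reverse of *Trib3* and *Chac1*. Its log2 difference was 1.12 with P+B against DMSO (SE 0.32, adjusted p = 0.0887, and 0.0245 with the replicate block) and 1.18 with P+B against PFI-3 (adjusted p = 0.119, and 0.0332 with the block). The first rested on the wide DMSO pair: it was 1.67 without DMSO replicate 1 (adjusted p = 0.041) and 0.57, under the fold of 1.5, without DMSO replicate 2 (0.257). In replicate 2 *Ddit4* was below replicate 1 in all 4 groups, which is the part that the block removes.

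**Figure D2:**
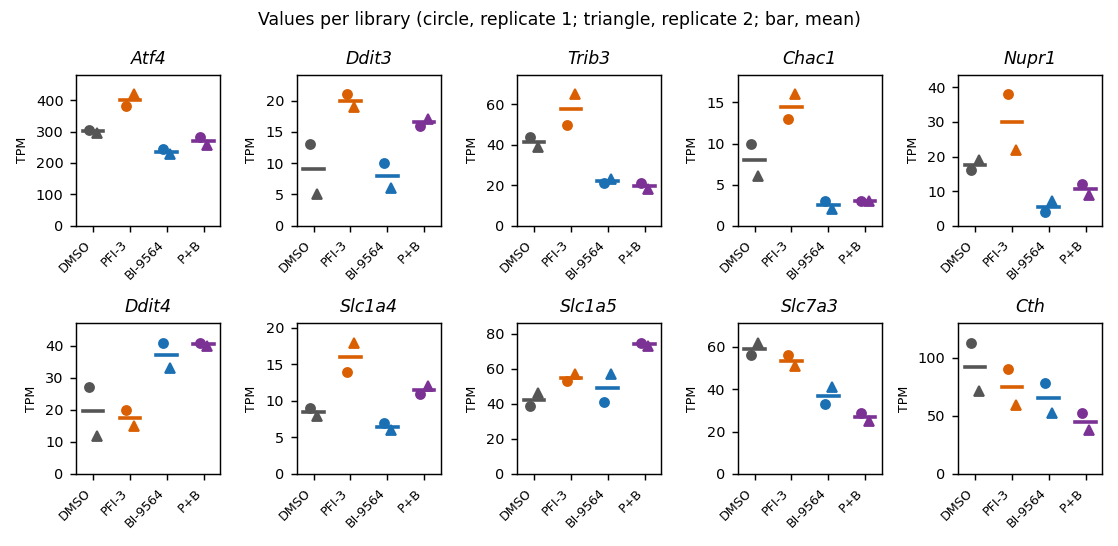
TPM per library (y axis, from 0) in the 4 groups (x axis) for 10 members; circles are replicate 1, triangles replicate 2 and bars the mean of the 2. *Trib3* and *Chac1* are lowest in the 2 groups with BI-9564 and *Ddit4* highest there, *Ddit3* is highest in the 2 groups with PFI-3, *Slc1a5* is highest with P+B at 75 and 73 TPM, and *Slc7a3* and *Cth* are lowest with P+B.

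Among the transporters, 2 of the 7 tested members changed with P+B against DMSO, in opposite directions, beside 1.28% of all tested genes higher and 2.72% lower. *Slc7a3* (X:101079210-101086020, minus strand), a carrier of arginine and lysine, had 56 and 62 TPM under DMSO, 56 and 51 under PFI-3, 33 and 41 under BI-9564, and 29 and 25 under P+B. The 2 groups with BI-9564 were separate from the 2 without it, and P+B lay below BI-9564. *Slc7a3* fell with P+B by a log2 difference of −1.10 against DMSO (SE 0.15, adjusted p = 0.00649) and of −0.96 against PFI-3 (SE 0.15, adjusted p = 0.024). With BI-9564 against DMSO its log2 difference was −0.67 (SE 0.15, adjusted p = 0.131).

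*Slc1a5* (7:16781340-16798274, plus strand), the neutral amino acid transporter ASCT2 that imports glutamine, had 39 and 46 TPM under DMSO, 53 and 57 under PFI-3, 41 and 57 under BI-9564, and 75 and 73 under P+B. The P+B libraries stood above all 6 others. *Slc1a5* rose with P+B against DMSO by a log2 difference of 0.79 (SE 0.16, 95% interval 0.41 to 1.17, adjusted p = 0.0361). P+B was above BI-9564 by 0.60 (adjusted p = 0.346) and above PFI-3 by 0.42 (0.254), neither of which passed.

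*Slc1a4*, the paralog ASCT1 that carries alanine, serine and cysteine, differed in another way. It had 9 and 8 TPM under DMSO, 14 and 18 under PFI-3, 7 and 6 under BI-9564, and 11 and 12 under P+B, so no pair of groups overlapped. BI-9564 lay below PFI-3 by a log2 difference of −1.17 (SE 0.22, adjusted p = 0.0834, and 0.0433 with the replicate block), and PFI-3 lay above DMSO by 0.83 (SE 0.22, adjusted p = 0.537).

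None of the remaining transporters was called in any comparison, with or without the replicate block. *Slc7a5*, the light chain of the LAT1 transporter of large neutral amino acids, had 217 and 211 TPM under DMSO, 221 and 254 under PFI-3, 213 and 216 under BI-9564, and 239 and 229 under P+B. Its annotated span lies within that of *Gm20388* on the other strand. *Slc3a2*, the heavy chain it shares with other carriers, stayed between 234 and 255 TPM in all 8 libraries, and its 95% interval for P+B against DMSO, −0.10 to 0.23, left out a fold of 1.5. *Slc7a1*, the main carrier of arginine and lysine, had 48 and 52, 53 and 62, 41 and 36, and 38 and 40 TPM in the order DMSO, PFI-3, BI-9564, P+B. Its 4 libraries with BI-9564 lay below the 4 without it, with a log2 difference of −0.35 for P+B against DMSO (adjusted p = 0.163). Against PFI-3 the log2 difference of *Slc7a1* was −0.57 with BI-9564 (adjusted p = 0.136) and −0.54 with P+B (0.0923). *Slc38a2*, the SNAT2 carrier of glutamine and alanine, had 190 and 175, 174 and 156, 191 and 171, and 160 and 148 TPM, and P+B against DMSO gave −0.24 (adjusted p = 0.202).

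None of the 5 tested serine and one-carbon enzymes changed in any comparison. *Psat1*, which makes phosphoserine, had 179 and 225 TPM under DMSO, 221 and 265 under PFI-3, 180 and 219 under BI-9564, and 186 and 223 under P+B. *Phgdh*, the first enzyme of serine synthesis, had 80 and 125, 85 and 121, 81 and 106, and 75 and 116 TPM, so its replicates differed more than its groups. *Shmt2*, which passes the carbon of serine to folate in mitochondria, had 177 and 210, 169 and 190, 171 and 195, and 161 and 182 TPM. Its log2 difference of −0.17 (SE 0.12, adjusted p = 0.447) was the largest of the group with P+B against DMSO, with a 95% interval of −0.45 to 0.11 that left out a fold of 1.5.

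*Psph*, the last step of serine synthesis, had 18 and 22 TPM under DMSO, 23 and 21 under PFI-3, 17 and 19 under BI-9564, and 20 and 24 under P+B. *Mthfd2*, the mitochondrial folate dehydrogenase, had 62 and 58, 72 and 81, 51 and 55, and 56 and 56 TPM, and was the one of the 5 whose single-compound groups lay on either side of DMSO without overlap. BI-9564 lay below PFI-3 by a log2 difference of −0.52 (SE 0.11, adjusted p = 0.118). In the same comparison *Psat1* and *Psph* each had −0.28 (adjusted p = 0.472 and 0.526).

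Of the other amino acid enzymes, *Asns*, which makes asparagine, had 385 and 381 TPM under DMSO, 422 and 421 under PFI-3, 342 and 343 under BI-9564, and 362 and 334 under P+B. The small spread of its replicates kept PFI-3, DMSO and BI-9564 apart, and BI-9564 against PFI-3 gave −0.30 (SE 0.07, 95% interval −0.46 to −0.14, adjusted p = 0.141), an interval within a fold of 1.5. *Aldh18a1* and *Pycr1* act in proline synthesis. *Aldh18a1* had 21 and 28, 33 and 38, 24 and 24, and 22 and 24 TPM, with PFI-3 above the 3 other groups (0.53 against DMSO, SE 0.17, adjusted p = 0.594). *Pycr1* had 18 and 16, 14 and 22, 10 and 22, and 11 and 19 TPM, and all of its groups overlapped.

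*Cth*, the cystathionine lyase that makes cysteine from methionine's sulfur, had 113 and 71 TPM under DMSO, 90 and 59 under PFI-3, 78 and 52 under BI-9564, and 52 and 38 under P+B. Within each replicate number the order was DMSO, PFI-3, BI-9564, P+B. Replicate 1 was above replicate 2 in each group. Its log2 difference with P+B against DMSO was −0.99 (SE 0.30, adjusted p = 0.0985), and with the replicate block it was a change (SE 0.09, adjusted p = 0.00104). P+B against PFI-3 gave −0.70 (adjusted p = 0.293, and 0.0082 with the block). With 1 library left out the first ranged from −1.33 to −0.66 (without DMSO replicate 2 and without DMSO replicate 1) and the second from −1.001 to −0.40 (without PFI-3 replicate 2 and without PFI-3 replicate 1), and *Cth* was not called in any of these fits.

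The 10 synthetases differed narrowly between treatments, and 0 of the 10 changed in any comparison of 2 groups, with or without the replicate block. *Aars*, which charges tRNAs with alanine, had 249 and 264 TPM under DMSO, 279 and 297 under PFI-3, 206 and 217 under BI-9564, and 214 and 225 under P+B. Its groups were separate except BI-9564 and P+B, and BI-9564 lay below PFI-3 by a log2 difference of −0.44 (SE 0.08, adjusted p = 0.0828) and P+B below DMSO by −0.22 (SE 0.08, adjusted p = 0.148). *Iars*, for isoleucine, had 139 and 153, 152 and 172, 110 and 126, and 119 and 134 TPM in the order DMSO, PFI-3, BI-9564, P+B. *Yars*, for tyrosine, had 74 and 82, 75 and 96, 55 and 67, and 70 and 77 TPM.

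For these the BI-9564 libraries lay below both DMSO and PFI-3 libraries. *Nars*, for asparagine, shared that pattern with 191 and 187, 200 and 220, 171 and 171, and 166 and 173 TPM. *Tars*, for threonine, had 160 and 159, 158 and 179, 152 and 148, and 152 and 152 TPM. *Eprs*, which charges glutamate and proline, had 176 and 170, 161 and 180, 153 and 163, and 153 and 164 TPM. Its PFI-3 libraries overlapped those of the other groups.

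The remaining 4 synthetases did not separate BI-9564 from DMSO. *Gars*, for glycine, had 279 and 288 TPM under DMSO, 274 and 298 under PFI-3, 266 and 293 under BI-9564, and 255 and 255 under P+B. *Mars*, for methionine, had 147 and 145, 163 and 169, 143 and 148, and 143 and 161 TPM. *Sars*, for serine, had 99 and 133, 118 and 117, 105 and 129, and 124 and 138 TPM. *Wars*, for tryptophan, had 86 and 87, 82 and 98, 85 and 92, and 90 and 99 TPM, and its groups overlapped except that P+B lay above DMSO.

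Of the other targets, *Eif4ebp1*, the repressor of cap-dependent translation 4E-BP1, was the most abundant member, with 614 and 669 TPM under DMSO, 643 and 614 under PFI-3, 536 and 587 under BI-9564, and 418 and 490 under P+B. The P+B libraries lay below the 6 others. P+B against DMSO gave a log2 difference of −0.50 (SE 0.09, 95% interval −0.72 to −0.28) with an adjusted p of 0.026, under the fold of 1.5 that a call required.

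Set against each other, the role groups differed in spread and, for the CHOP branch, in median as well. The CHOP-branch genes were also lower in level, with means of 7 to 35.1 TPM over the 8 libraries, beside 74.5 to 276 TPM for the synthetases. With P+B against DMSO, 1 of the 36 tested members rose, against 1.28% of all tested genes, and 2 fell, against 2.72%: the shares of 2.78% and 5.56% rest on *Slc1a5*, *Trib3* and *Slc7a3*. The count of 3 became 5, against 7.02% of all tested genes, with the replicate block, which added *Ddit4* and *Cth*. By groups that do not overlap, 7 members were higher with P+B (19.4%) and 17 lower (47.2%), against 28.6% and 18.9% of all tested genes. The median log2 difference with P+B was −0.69 over the 5 CHOP-branch genes (from −1.13 to 1.12), −0.10 over the serine and one-carbon enzymes (from −0.17 to 0.13), −0.18 over the other amino acid enzymes, 0.07 over the transporters (from −1.10 to 0.79) and −0.11 over the synthetases (from −0.22 to 0.19), beside 0.06 over all tested genes. Centring each library on its median turned the median of the transporters to −0.03. *Trib3* was no longer called when any 1 of the 4 libraries of this comparison was left out (adjusted p from 0.0602 to 0.112). *Slc7a3* was no longer called without DMSO replicate 1 or 2 or P+B replicate 2 (0.0562 to 0.0678), nor *Slc1a5* without either DMSO, PFI-3 or P+B replicate (0.0737 to 0.172). *Slc1a5* was also not called with a filter of a mean of at least 1 TPM (0.054), without a filter (0.0859), without a trend in the prior variance (0.0667) or with the libraries of the 2 groups alone (0.122).

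With PFI-3 alone 0 of the 36 tested members changed, as did 0.00% of all tested genes, and 7 had an unadjusted p under 0.05 against 6.79% of all tested genes. Both PFI-3 libraries lay above both DMSO libraries in 16 members (44.4%), against 16.5% of all tested genes. They lay below in 1 (2.78%), *Slc38a2*, against 12.8%. The 16 held *Atf4*, 4 of 5 CHOP-branch genes, 5 of 7 transporters and 3 of 10 synthetases. The median log2 difference over the CHOP branch was 0.70 (from −0.06 to 1.195). It was 0.14 over the serine and one-carbon enzymes, 0.15 over the transporters and 0.10 over the synthetases, beside 0.02 over all tested genes.

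With BI-9564 alone 0 of the 36 tested members changed, against 0.108% of all tested genes, and 10 had an unadjusted p under 0.05 against 14.9%. With the replicate block *Trib3* fell, against 1.04% of all tested genes that fell. Both BI-9564 libraries lay below both DMSO libraries in 16 members (44.4%), against 18.3% of all tested genes, 6 of them synthetases. The median log2 difference over the CHOP branch was −0.88 (from −1.54 to 0.99). It was −0.11 over the serine and one-carbon enzymes, −0.01 over the transporters and −0.11 over the synthetases, beside 0.02 over all tested genes. The transporter median was 0.05 after quantile normalization. The 3 comparisons share the DMSO libraries, so their values are given side by side only.

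**Figure D3:**
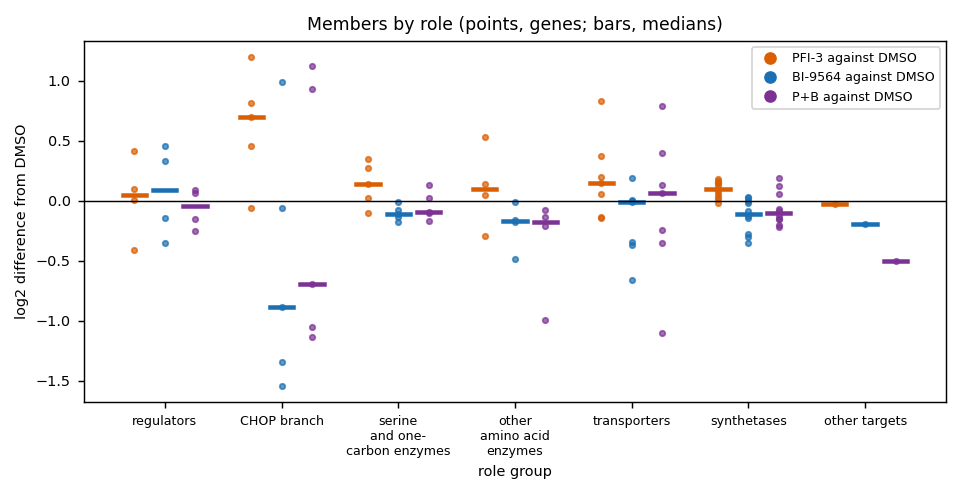
Log2 difference from DMSO (y axis) of each tested member (points) by role group (x axis), for PFI-3 (orange), BI-9564 (blue) and P+B (purple); bars are medians. The CHOP branch spans from −1.54 to 1.19, and every synthetase lies between −0.35 and 0.19.

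The 2 compounds were set against each other directly, a comparison that does not use the DMSO libraries except for the pooled spread. *Atf4* and *Trib3* were lower with BI-9564 than with PFI-3, 2 of the 36 tested members against 0.0783% of all tested genes. With the replicate block 5 members were lower, against 0.978%, the additions being *Chac1*, *Nupr1* and *Slc1a4*. Both BI-9564 libraries lay below both PFI-3 libraries in 21 members (58.3%), against 19.9% of all tested genes, and above in 3, *Cebpb*, *Cebpg* and *Ddit4*, against 20.5%. By sign alone 31 of 36 were lower with BI-9564, beside 48.7% of all tested genes. The lower members without overlap were 4 of 5 CHOP-branch genes, 3 of 5 serine and one-carbon enzymes, 4 of 7 transporters, 6 of 10 synthetases, *Asns*, *Aldh18a1*, *Atf4* and *Eif4ebp1*.

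By role, the median log2 difference of BI-9564 from PFI-3 was −1.34 over the CHOP branch (from −2.24 to 1.04). It was −0.28 over the serine and one-carbon enzymes and −0.26 over the other amino acid enzymes. Both the transporters and the synthetases had −0.18, beside 0.00 over all tested genes. All 10 synthetases were below 0, from −0.48 for *Yars* to −0.01 for *Sars*. The calls of *Atf4* and *Trib3* were lost when any 1 of the 8 libraries was left out (adjusted p from 0.0928 to 0.272 and from 0.129 to 0.287), and with genes of a mean of at least 1 TPM tested (0.0524 and 0.0878).

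**Figure D4:**
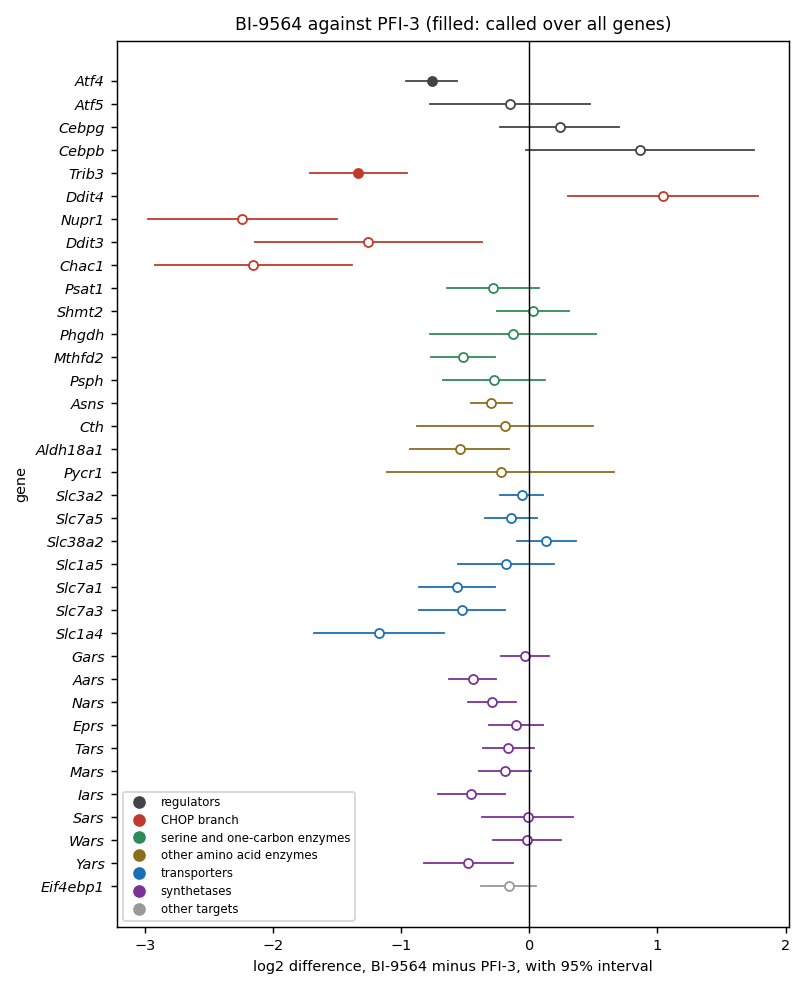
Log2 difference between BI-9564 and PFI-3 (x axis, negative where BI-9564 is lower) of the 36 tested members (y axis), with 95% intervals from limma; colours are role groups and filled points changed over all tested genes. The filled points are *Atf4* at −0.76 and *Trib3* at −1.34, and the intervals of *Nupr1* and *Chac1* lie wholly below −1.

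P+B was then compared with each compound. Against PFI-3, *Trib3*, *Chac1* and *Slc7a3* were lower with P+B, 3 of the 36 tested members against 1.05% of all tested genes, and with the replicate block 5 changed, against 3.43%, as *Ddit4* was higher and *Cth* lower. Both P+B libraries lay below both PFI-3 libraries in 19 members (52.8%), against 18.9% of all tested genes. The calls of *Trib3* were lost without either PFI-3 or either P+B library (adjusted p from 0.0539 to 0.12), those of *Chac1* without any 1 of the 8 (0.0595 to 0.235) and those of *Slc7a3* without either DMSO, PFI-3 or P+B library (0.062 to 0.181). Against BI-9564, 0 of the 36 tested members differed, against 0.196% of all tested genes, and 7 had an unadjusted p under 0.05 against 7.97%. P+B lay above BI-9564 without overlap in 10 members (27.8%), against 17.6% of all tested genes, among them *Atf4*, *Ddit3*, *Nupr1*, *Slc1a4* and *Slc1a5*.

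In the test of P+B against the sum of the single compounds, 0 of the 36 tested members passed, as did 0.00% of all tested genes. *Trib3* (log2 departure −0.62, SE 0.23) and *Aldh18a1* (−0.59, SE 0.24) had an unadjusted p under 0.05, with 3.26% of all tested genes at that level, and adjusted p-values of 1. The doses in P+B are not given in the labels, so this sum need not be what independent actions would give.

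Other genes of the pathway were taken as lists of 82 genes, of which 70 were tested. Like the members, these lists were chosen with earlier results of these data known. Their shares beside all tested genes are thus descriptive only. With P+B against DMSO 5 of the 70 changed, 1 higher and 4 lower, beside 1.28% and 2.72% of all tested genes. With the replicate block 6 of 70 changed, beside 7.02%, as *Slc36a1*, a lysosomal amino acid carrier, was higher too. *Slc38a1*, a glutamine carrier of the SNAT family, had 54 and 57 TPM under DMSO, 52 and 55 under PFI-3, 33 and 35 under BI-9564, and 26 and 29 under P+B (P+B against DMSO −0.99, SE 0.12, adjusted p = 0.00411). *Got1*, the cytosolic aspartate aminotransferase, had 314 and 316, 289 and 271, 210 and 226, and 189 and 179 TPM (−0.77, SE 0.08, adjusted p = 0.00282). For both the libraries with BI-9564 lay below the 4 without it, the arrangement seen for *Trib3* and *Slc7a3*.

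*Sesn2*, a leucine sensor that restrains mTORC1, rose with P+B from 62 and 43 to 98 and 93 TPM (0.87, SE 0.17, adjusted p = 0.0267) and had 66 and 58 under PFI-3 and 88 and 80 under BI-9564, which is the arrangement of *Ddit4*. *Atf3*, a stress-induced partner of JUN, had 29 and 32 TPM under DMSO, 17 and 20 under PFI-3, 29 and 34 under BI-9564, and 10 and 13 under P+B (−1.34, SE 0.18, adjusted p = 0.0066). *Gadd45a*, a growth arrest gene, fell from 87 and 112 to 46 and 47 TPM (−1.07, SE 0.16, adjusted p = 0.0098).

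With the replicate block 4 of the 70 differed between P+B and PFI-3, beside 3.43% of all tested genes. The block added *Atf3* as lower and *Sesn2* as higher. Without it, *Slc38a1* (−0.94, adjusted p = 0.0137) and *Got1* (−0.60, 0.0167) were lower with P+B, 2 of the 70, beside 1.05%. Those 2 calls were lost without either PFI-3 or P+B library, and that of *Got1* also without either DMSO library (adjusted p from 0.0514 to 0.131). Against BI-9564, *Atf3* was lower with P+B (−1.38, adjusted p = 0.0361), 1 of the 70, beside 0.196% of all tested genes. Its call was lost without any 1 library, with log2 differences from −1.559 to −1.211. With the block 1 of the 70 still changed, beside 0.802%. Of the 70, 0 changed with PFI-3 or BI-9564 alone against DMSO (7 and 10 at an unadjusted p under 0.05, beside 6.79% and 14.9% of all tested genes), and 0 between BI-9564 and PFI-3 (14 at that level, beside 14.2%). With 1 library left out, *Slc38a1* and *Got1* kept their calls for P+B against DMSO in all 8 cases, *Atf3* lost its own in 3 (both DMSO libraries and P+B replicate 1), *Gadd45a* in 3 (DMSO replicate 2 and both P+B libraries) and *Sesn2* in 7, all but DMSO replicate 1 (adjusted p from 0.0583 to 0.147). With the block 2 changed with BI-9564, *Slc38a1* lower and *Sesn2* higher, beside 1.53% of all tested genes, and 3 differed between BI-9564 and PFI-3, *Slc38a1* and *Herpud1* lower and *Atf3* higher, beside 1.48%.

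Beside the −0.18 of the member synthetases, the median log2 difference of BI-9564 from PFI-3 was −0.05 over the 10 cytosolic synthetases outside the members and −0.05 over 15 tested mitochondrial ones, and 0 of either list changed in any comparison. In BI-9564 against DMSO the 10 other cytosolic synthetases had a median of −0.12 with all 10 below 0, close to the −0.11 of the member synthetases. The 14 genes of eIF2 kinases, eIF2B and the eIF2 phosphatases had medians against DMSO of 0.04 under PFI-3, −0.05 under BI-9564 and −0.04 under P+B, and 0 of them changed. Medians with P+B against DMSO were 0.20 over 5 tested other amino acid transporters, −0.02 over 12 other serine, glycine and folate enzymes, −0.08 over 11 other ATF4 targets and −0.04 over the 3 scaffold proteins of the synthetase complex.

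Several members differed between the replicate numbers. Replicate 2 was above replicate 1 in all 4 groups in 8 of the 36 tested members (*Atf5*, *Psat1*, *Phgdh*, *Shmt2*, *Aars*, *Wars*, *Yars* and *Iars*), against 11.1% of all tested genes, and below in 3 (*Ddit4*, *Cth* and *Slc38a2*), against 12.8%. Of the 8, 4 were synthetases and 3 serine or one-carbon enzymes. *Phgdh* went from 75 to 85 TPM in replicate 1 to 106 to 125 TPM in replicate 2, and *Cth* from 52 to 113 TPM to 38 to 71 TPM. *Jun* itself was higher in replicate 2 of every group. What the replicate numbers stand for is not in the labels, and its part in these differences was not tested.

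**Figure D5:**
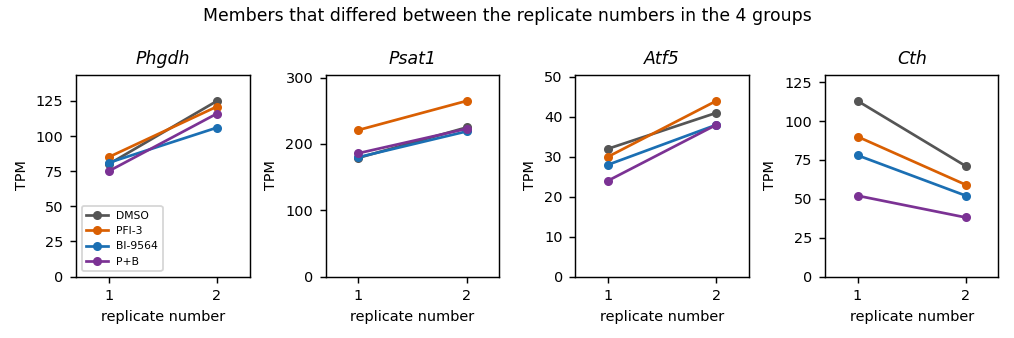
TPM (y axis, from 0) in replicate 1 and replicate 2 (x axis) of the 4 groups (lines) for 4 members. *Phgdh*, *Psat1* and *Atf5* are higher in replicate 2 of every group and *Cth* lower, while the lines of *Cth* keep the order DMSO, PFI-3, BI-9564, P+B.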

How the data were processed

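RNA-seq libraries were made from poly-A RNA of 8 samples. The submitters' processing notes name bcl2fastq, Bowtie2 2.2.5, RSEM 1.3.0 and the build mm10. The annotation and the strand setting are not given in the sources used here. The authors deposited a single table of TPM that they had made whole numbers, so each value is treated as a score. All values were whole. The paper's own analysis used DESeq2, which needs counts and was not run here. The comparisons used limma 3.58.1 (R 4.3.3) on log2(value + 1), with genes kept at a mean of at least 5 (all 4 groups in 1 fit without a block, 4 residual degrees of freedom, eBayes with a trend). The fit was tested on simulated data. The Benjamini-Hochberg adjustment ran over all tested genes of a comparison.

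The labels number the replicates alike in each group. Over genes, replicate 1 minus replicate 2 correlated in all 6 pairs of groups (Pearson's r 0.143 to 0.236). The numbers were therefore treated as a possible pairing, and each comparison was also fitted with that number as a block. The main calls, adjusted p-values and intervals are from the fit without the block. The alternatives were that block, other pseudocounts (0.5 and 5), filters (a mean of at least 1, at least 20, none), scalings, thresholds and sample choices, and leaving out each library.

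The members, the role groups and the lists of pathway and marker genes were chosen with earlier results of these data known. Values in every library are given for all tested members, and pathway genes are named where they changed in any comparison of 2 groups, with or without the block. Positions are from GENCODE M21 on GRCm38, and promoters from RefSeq. The promoter windows of 1 further gene are not reported here.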

Additional observations from a re-analysis of the deposited data

How the results depend on the processing

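No result changed direction with its call. Of the 36 tested members, P+B against DMSO called 3, and 5 with the replicate block, 1 at an adjusted p under 0.01, 0 in a fit of only the libraries compared, and 0 to 3 when a library was left out. P+B against PFI-3 called 3, and 5 with the block, 0 without a filter, without a trend, at 0.01 or with only the libraries compared, and 0 to 2 with a library left out. BI-9564 against PFI-3 called 2, and 5 with the block, and 0 with a filter of a mean of at least 1, with none, without a trend, at 0.01, with only the libraries compared, and without any 1 library. BI-9564 against DMSO called 0, and 1 with the block. The test of any difference called 5, and 12 with the block, 3 with a mean of at least 1, 0 without a filter, without a trend or at 0.01, and 0 to 2 with a library left out. Calls over all tested genes fell in these settings too. With only the libraries compared they were 0 of 10222 in every comparison of 2 groups. For P+B against DMSO they went from 409 to 124 at 0.01. For P+B against PFI-3 they went from 134 to 6 without a filter, 4 without a trend and 9 at 0.01. For BI-9564 against PFI-3 they went from 11 to 0 with a mean of at least 1, without a filter, without a trend and at 0.01. The cause of these losses was not tested. The block, that is the pairing by replicate number, changed no other call between 2 groups. The median difference of the tested members with P+B was −0.11, −0.21 after median centring, and with PFI-3 0.13, from 0.0658 to 0.215 with a library left out, the highest without PFI-3 replicate 1. Alternatives for the medians of the role groups were added after the data were seen. The median of the serine and one-carbon enzymes changed sign when DMSO or treated replicates were left out, from −0.10 to 0.19 without DMSO replicate 2 for P+B. With TPM made whole numbers, depth is unknown, and members under 10 TPM, such as *Chac1*, are limited by steps of 1.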
